A study of Rattus norvegicus with 15 samples.

Results

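Retinas of adult Long Evans rats after 6 hours of light were compared with retinas taken at dawn from rats kept in the dark all night. The comparison rests on 6 of the 15 samples of the series, the 3 of the group called 6 ZT light and the 3 of the control called 0 ZT dark, chosen by their titles and paired by replica number. ZT counts the hours from the start of the light phase. The control was collected at 7 am in darkness. The 6 ZT light animals were also kept in the dark overnight and were then held at 1000 lux, with collection at 1 pm. The titles of these samples give 6 hours of light, while their source and treatment labels give 3, and the titles were followed here. Another group, 6 ZT dark, was collected at 1 pm without any light, and its 3 samples stand beside the results because 6 ZT light and 0 ZT dark differ in light and in clock hour together. The rats were otherwise untreated, and neither the labels nor the methods say how many animals went into a replica.

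Each sample was hybridised to a rat expression array (Affymetrix), on which a probe set, a group of short oligonucleotides, reads 1 transcript. In all, 31042 probe sets were tested, and 57 controls of the manufacturer were left out. All levels are log2 values, so that a difference of 1 is a doubling, and a ratio is the linear ratio of a sample to the 0 ZT dark sample with its replica number. The retina is built of rods and cones, which turn light into an electrical signal, of the bipolar, horizontal, amacrine and ganglion cells that carry it on, and of Müller glia. Dawn is when rods leave the dark current and lower their transmitter release, when dopamine takes over from melatonin, and when immediate early genes of the inner retina respond to light. Photoreceptors also read a local circadian clock, which is why the hour of collection matters.

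The samples do not stand at the same level. The median level was 8.32, 8.62 and 8.79 in replicas 1 to 3 of 0 ZT dark and 8.31, 8.68 and 8.8 in those of 6 ZT light, so that samples with the same number lie together in both groups. Statements below on overlap compare levels across replica numbers and carry this difference. The 6 arrays correlated with r from 0.978 to 0.993 and none of them were identical. In 0 ZT dark replica 1 the control probe sets at the 3' end of *Actb* stood 2.1 log2 units above those at its 5' end, a measure of RNA integrity, against 0.708 to 1.22 in the other 8 arrays of the 3 groups. The part of this difference in the results was not tested, and the counts of the ratio rule are given below without that replica. The 6 measured markers of photoreceptors had a summed level of 17.38 to 17.58 in 0 ZT dark and 17.47 to 17.67 in 6 ZT light (log2). In whole retinas a lower share of a cell type and less RNA per cell cannot be told apart.

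The question was which transcripts differ between dawn and 6 hours of light. No probe set passed an adjusted p of 0.05 in limma, which fits 1 linear model per probe set with the replica as a block, with 0 higher and 0 lower (0.0% of the 31042 tested in each direction). At an unadjusted p under 0.05, 1216 probe sets were higher in 6 ZT light (3.92%) and 702 lower (2.26%). The lowest adjusted p was 0.102 and was shared by 5 probe sets. Between 6 ZT light and 6 ZT dark, at the same hour, limma also passed 0 probe sets in either direction (0.0% each). At an unadjusted p under 0.05, 1726 were higher in light at that hour (5.56%) and 921 lower (2.97%). With array quality weights limma passed 511 as higher and 165 as lower, and without 3 ZT light replica 2, an array that enters only the estimate of the spread, 36 and 2. Nothing says that the replicas came from separate animals, so the p-values speak of the scatter of these arrays alone, part of which may be technical, and 3 samples a group limit the precision. No gene named below is therefore called changed.

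The replicas were unlike each other in size and in direction. In replica 1, 978 probe sets stood above a ratio of 1.6 and 1914 below 0.7, against 551 and 737 in replica 2 and 437 and 1117 in replica 3. The SD of the log2 ratios was 0.359, 0.281 and 0.289. Across the 31042 probe sets, which are not independent replicates, the log2 ratios of replicas 2 and 3 correlated with r = 0.31, those of replicas 1 and 3 with r = −0.01 and those of replicas 1 and 2 with r = −0.19. A value was exactly the same in light and control for 8.06%, 8.96% and 5.75% of the probe sets in the 3 replicas. All 3 ratios were above 1 for 3806 probe sets (12.3%) and below 1 for 2913 (9.38%).

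**Figure D1:**
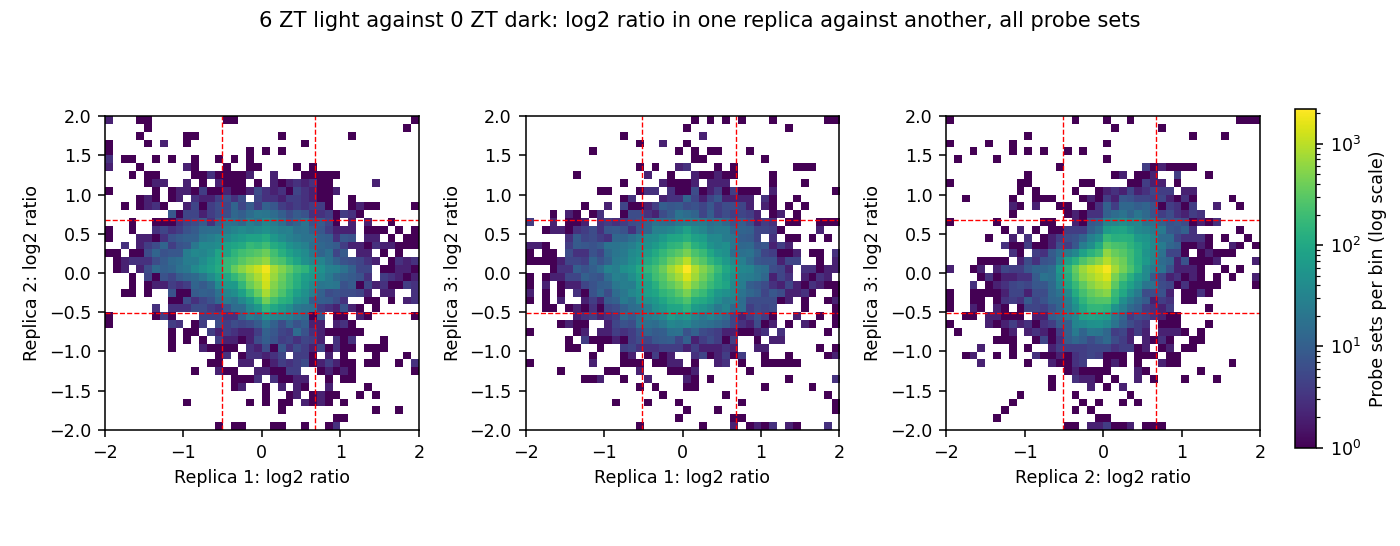
Log2 ratio of 6 ZT light to 0 ZT dark in one replica (horizontal axis) against another (vertical axis) for 31042 probe sets, as counts per bin on a log colour scale, with values beyond the axes placed in the outer bins. Dashed red lines mark ratios of 0.7 and 1.6. Replicas 2 and 3 lean along the diagonal (r = 0.31), whereas replica 1 does not follow them (r = −0.19 and −0.01).

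The study's own rule asks for a ratio above 1.6, or below 0.7, in all 3 replicas. It passed 22 probe sets as higher (0.0709% of those tested) and 22 as lower (0.0709%), of which 15 and 14 carry a single gene symbol. The paper counts more up-regulated genes after 6 hours of light, and as many down-regulated ones. It also names *Dio2* as the most up-regulated gene, raised in all replicas. Here the ratios of *Dio2* were 1, 1.71 and 3.65 in replicas 1 to 3, so it did not pass. In replica 1 its level was the same in both groups and lay below the median level of those arrays. The cause of these differences from the paper was not tested. By real-time PCR the paper also reports a rise of *Dio2* in light, and by Western blot and staining more of its protein. Neither was measured on these arrays. Without replica 1 the rule, which then asks for 2 replicas, passed 97 and 123, and without replica 2 or 3 it passed 64 and 49 as higher and 168 and 62 as lower. These probe sets were selected on the same ratios, so that their values are a description. In 13 of the 22 higher ones every level of 6 ZT light lay above every level of 0 ZT dark, which was so for 1.74% of all probe sets, and in 16 of the 22 lower ones every level lay below, against 1.81% of all. In 6 ZT dark, whose ratios share the 0 ZT dark samples, all 3 ratios were above 1 for 21 of the 22 higher ones and below 1 for 16 of the 22 lower ones. The same control values entered the selection, so part of this agreement and of the medians in darkness below is built in. The share of all probe sets with such ratios in 6 ZT dark was not counted. The median log2 fold change of the higher set was 0.93 in light, 0.66 in darkness and 0.32 between light and darkness at 6 ZT. For the lower set these medians were −0.81, −0.59 and −0.19, and over all probe sets they were −0.01, 0.01 and −0.01.

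**Figure D2:**
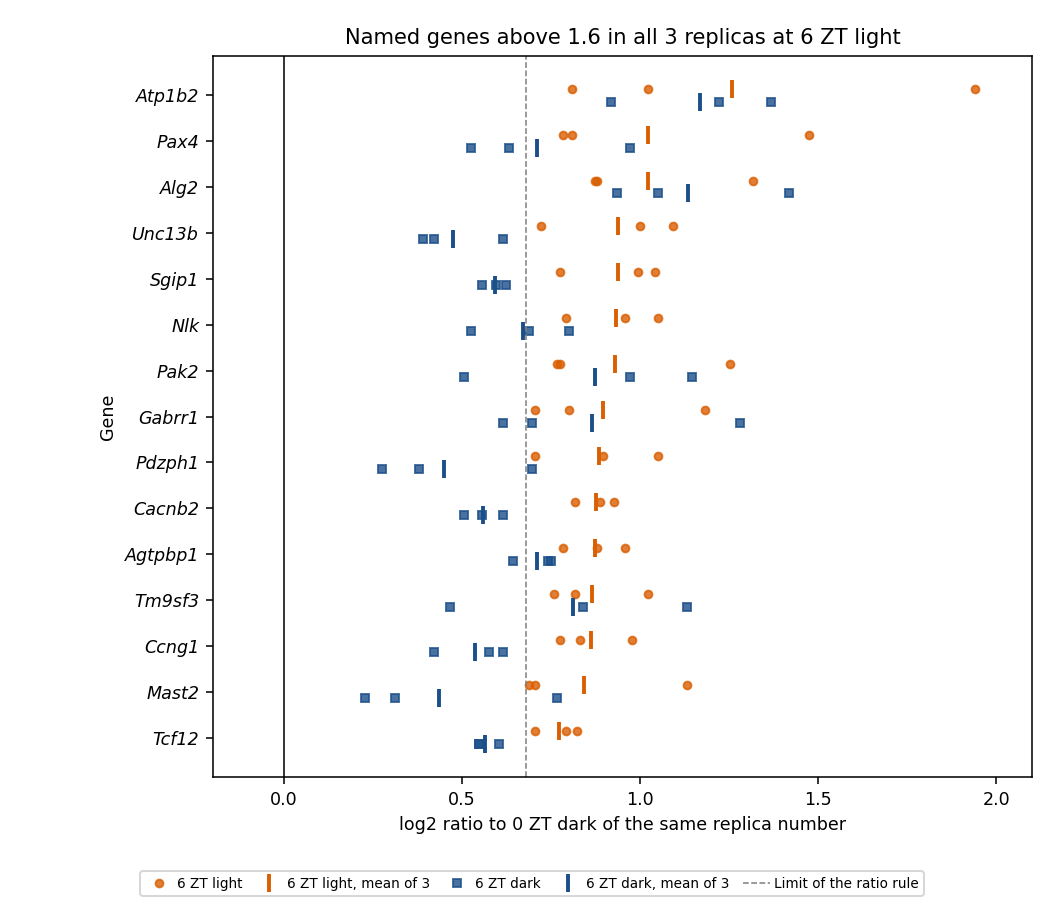
Log2 ratio to 0 ZT dark of the same replica number (horizontal axis) for the 15 named genes (vertical axis) that stood above 1.6 in all 3 replicas of 6 ZT light, shown for 6 ZT light (orange circles) and 6 ZT dark (blue squares), with upright marks for the mean of 3 and a dashed line at the rule's limit. The rule fixes the place of the orange points, and all 3 dark points also lie to the right of 0 for each gene shown. The dark ratios share the control values on which the genes were selected.

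Among the higher genes, *Unc13b*, *Gabrr1*, *Cacnb2* and *Sgip1* belong to the synapse. *Unc13b* (Munc13-2) primes synaptic vesicles for release, and its single probe set read 7.51, 8.49 and 9.05 in replicas 1 to 3 of 0 ZT dark, 8.6, 9.21 and 10.04 in 6 ZT light, and 8.12, 8.88 and 9.46 in 6 ZT dark. Light was above both dark groups within each replica number, but the groups overlapped, since the replica numbers stood further apart than the groups. The log2 fold change was 0.94 (standard error 0.324), and 0.71 without 0 ZT dark replica 1.

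*Sgip1*, which binds membranes and endocytic proteins at nerve terminals, is read by 2 probe sets. The brighter stood at 12.41, 12.28 and 12.25 in 0 ZT dark, 13.04, 12.86 and 13.08 in 6 ZT light and 12.53, 12.45 and 12.77 in 6 ZT dark. Light was above all dark samples of both hours, with no overlap. The dimmer one, which passed the ratio rule, stood at 9.85, 9.73 and 10.48, then 10.84, 10.77 and 11.25, then 10.40, 10.33 and 11.10 in the same order. Their log2 fold changes were 0.68 (standard error 0.107) and 0.94 (standard error 0.154), with an adjusted p of 0.159 each in limma.

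*Cacnb2* encodes the β2 subunit of the voltage-gated calcium channel at photoreceptor terminals. Its brightest probe set read 12.07, 12.12 and 11.86 in 0 ZT dark, 12.40, 12.43 and 12.37 in 6 ZT light and 12.09, 12.12 and 12.22 in 6 ZT dark. The light samples lay close together and above all 6 dark ones. This probe set was not the one that passed the ratio rule, and light stood 0.39 above control there (standard error 0.0999), beside 0.30 for a second and 0.88 for the dimmest, which did pass. *Gabrr1*, the ρ1 subunit of the GABA-C receptor of bipolar cells, passed with the dimmer of 2 probe sets (6.82, 7.52 and 8.26 against 7.52, 8.70 and 9.06). In 6 ZT dark that probe set stood at 7.51, 8.8 and 8.88, level with the light samples. The brighter one of *Gabrr1* had log2 fold changes of 0.46 in light (standard error 0.234) and 0.24 in darkness.

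*Ccng1*, cyclin G1, a target of p53, had a single probe set at 12.56, 12.78 and 12.88 in 0 ZT dark, 13.33, 13.75 and 13.72 in 6 ZT light and 12.98, 13.35 and 13.49 in 6 ZT dark. The groups did not overlap between light and control, and 6 ZT dark lay between them within each replica number. Light stood 0.86 above control (standard error 0.106, adjusted p = 0.102 in limma), against 0.54 in darkness and 0.32 between light and darkness. Over all alternatives of the fit it ran from 0.81 to 0.90. *Pdzph1*, named for its PDZ and PH domains, had a similar course. It stood at 13.24, 13.19 and 13.41, then 13.95, 14.24 and 14.31 in light, then 13.52, 13.57 and 14.11 in 6 ZT dark, at 0.89 log2 units above control in limma (standard error 0.119, adjusted p = 0.102).

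*Pax4*, a homeobox transcription factor, stood at 11.66, 12.25 and 12.69 in 0 ZT dark, 13.13, 13.06 and 13.47 in 6 ZT light and 12.63, 12.77 and 13.32 in 6 ZT dark. No light level overlapped the control, and replica 1 held the largest difference. Its log2 fold change was 1.02 (standard error 0.385), and 0.74 without 0 ZT dark replica 1. *Atp1b2*, the β2 subunit of the sodium pump, had the highest mean ratio of the 15, 2.54 ± 1.14 (SD, n = 3), on the dimmer of 2 probe sets, with 9.68, 10.83 and 11.02 against 11.62, 11.64 and 12.04. In 6 ZT dark this probe set stood at 10.90, 11.75 and 12.38. The brighter probe set had a mean ratio of 1.29 ± 0.157, with all light levels above those of 0 ZT dark.

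The kinases *Nlk*, *Pak2* and *Mast2* also passed the rule. *Mast2*, a microtubule-associated kinase, did so with its brightest probe set, at 10.51, 10.40 and 10.76 against 11.20, 11.53 and 11.46, with 10.74, 11.16 and 11.08 in 6 ZT dark. The light levels did not overlap either dark group, while the other 2 probe sets of *Mast2* had log2 fold changes of −0.04 and −0.01. *Nlk*, a kinase of Wnt and Notch signalling, passed with the dimmest of 5 probe sets (mean ratio 1.91 ± 0.172), and the other 4 had log2 fold changes from −0.48 to 0.25. *Pak2*, a kinase of the actin cytoskeleton, had 4 probe sets, all higher, at 0.24 to 0.93. The one that passed had 0.93 in light and 0.87 in 6 ZT dark. For *Nlk* the one that passed had 0.93 and 0.67.

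Of the remaining genes, *Tcf12*, a basic helix-loop-helix factor, had a mean ratio of 1.71 ± 0.0715 with the dimmer of 2 probe sets, while the brighter had a log2 fold change of 0.14. *Agtpbp1*, which removes glutamate from tubulin and is needed for photoreceptor survival in mice, had a mean ratio of 1.83 ± 0.110 on 1 probe set and log2 fold changes from 0.00 to 0.38 on 4 others. *Tm9sf3*, a membrane protein of the secretory path, had 1.82 ± 0.179 on the dimmest of 3, while the brightest had a log2 fold change of 0.09 and the other 0.44. *Alg2*, a mannosyltransferase of N-glycan synthesis, was higher on 3 dim probe sets (0.91, 1.02 and 1.06, with 0.92, 1.13 and 1.12 in 6 ZT dark). Its brightest stood at −0.03, with 13.09, 13.16 and 13.06 against 12.99, 13.16 and 13.06. In light the selected probe sets of *Tcf12*, *Agtpbp1* and *Tm9sf3* had log2 fold changes of 0.77, 0.87 and 0.86. In 6 ZT dark they had 0.56, 0.71 and 0.81. Of the 15 higher genes, 5 passed with their brightest or only probe set. The 15 genes had 24 further probe sets that the rule did not select, with log2 fold changes from −0.48 to 1.06 (median 0.28). Of these, 16 were above 1 in all 3 replicas, against 12.3% of all probe sets. They read the same genes in the same samples as the selected ones, so they are not separate evidence.

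The other 7 higher probe sets carry no symbol, and they include the 3 with the highest mean ratios. Probe set 1389754 stood at 9.73, 9.25 and 9.41 in 0 ZT dark, 10.87, 10.96 and 11.75 in 6 ZT light and 9.41, 9.68 and 9.48 in 6 ZT dark. All 3 light samples lay more than 1 log2 unit above all 6 dark samples. The log2 fold change was 1.73, against 0.06 in darkness, and the difference between light and darkness at 6 ZT was 1.67 (adjusted p = 0.118 in limma). Probe set 1385568, with the highest mean ratio of all, stood at 6.08, 6.23 and 6.96, then 8.09, 8.17 and 9.69 in light, then 6.81, 6.91 and 7.55 in darkness at 6 ZT. Its log2 fold change was 2.23 in light and 0.67 in darkness.

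Of the 14 lower genes, 12 were read by the only or the brightest probe set of the gene. *G0s2*, an inhibitor of fat breakdown by adipose triglyceride lipase, had the lowest mean ratio among them, 0.5 ± 0.127 (SD, n = 3). It stood at 10.13, 9.90 and 10.38 in 0 ZT dark, 9.08, 9.24 and 8.99 in 6 ZT light and 9.53, 8.95 and 8.73 in 6 ZT dark. Both groups of 6 ZT lay below every 0 ZT dark sample and overlapped each other, with a difference of 0.04 between them.

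*Adra1b*, the α1B-adrenergic receptor, stood at 11.18, 11.16 and 10.68 in 0 ZT dark, 10.57, 10.04 and 9.99 in 6 ZT light and 11.35, 10.86 and 10.11 in 6 ZT dark. Light was lower than both dark groups within each replica number, and lower than every 0 ZT dark sample. The log2 fold change was −0.80 (standard error 0.191) in light and −0.23 in darkness. *Lrrc73*, a leucine-rich repeat protein, had a similar course, with light below darkness at the same hour within each number. It stood at 10.87, 10.54 and 10.74 against 10.19, 9.97 and 10.05, with 10.73, 10.78 and 10.20 in 6 ZT dark. *Lynx1*, a modulator of nicotinic acetylcholine receptors, passed with the dimmer of 2 probe sets. That probe set stood at 10.04, 10.24 and 10.63 against 9.34, 9.66 and 10.06, with 10.24, 10.00 and 10.37 in 6 ZT dark. Light was again below darkness within each number, but light and control overlapped. The brighter probe set of *Lynx1* did not pass, with ratios of 0.555, 0.946 and 0.844 and a log2 fold change of −0.39.

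*Rprm*, which arrests the cell cycle downstream of p53, stood at 9.16, 9.20 and 9.77 in 0 ZT dark, 7.85, 8.63 and 9.10 in 6 ZT light and 9.12, 8.89 and 9.31 in 6 ZT dark. The lowest control lay just above the highest light sample, and replica 1 held the largest difference. *Kif11*, a kinesin of the mitotic spindle, stood at 7.66, 8.27 and 8.22 against 7.13, 7.17 and 7.48, with 7.76, 7.45 and 7.85 in 6 ZT dark, and its second probe set had a log2 fold change of −0.23. *Id4*, an inhibitor of basic helix-loop-helix factors, passed with the dimmest of 4 probe sets at 0.561 ± 0.118, and the others had log2 fold changes of −0.18, −0.48 and −0.05.

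*Mx2*, an interferon-induced GTPase, had ratios of 0.675, 0.65 and 0.378 in 6 ZT light and of 0.662, 0.407 and 0.134 in 6 ZT dark. Darkness at 6 ZT thus lay lower than light in all 3 replicas, with log2 fold changes of −1.60 and −0.86. *Mlf1*, a nuclear shuttling protein first known from leukemia, had similar mean ratios in light (0.522 ± 0.106) and darkness (0.550 ± 0.0459). *Chodl*, a membrane lectin, had 0.572 ± 0.114, and *Dedd*, a death effector domain protein, had 0.674 ± 0.0363 with its brighter probe set and a log2 fold change of 0.10 with the dimmer. *Lrguk*, a guanylate kinase domain protein, stood at 9.09, 9.10 and 9.04 against 8.47, 8.31 and 8.38, with an adjusted p of 0.159 and no overlap. The uncharacterised *LOC102553043* stood at 9.06, 9.36 and 9.34 against 8.33, 8.45 and 8.19 (adjusted p = 0.102), and *LOC102554959* had a mean ratio of 0.590 ± 0.0515. The 14 genes had 7 further probe sets, with a median log2 fold change of −0.21. Of these, 2 were below 1 in all 3 replicas, against 9.38% of all probe sets.

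**Figure D3:**
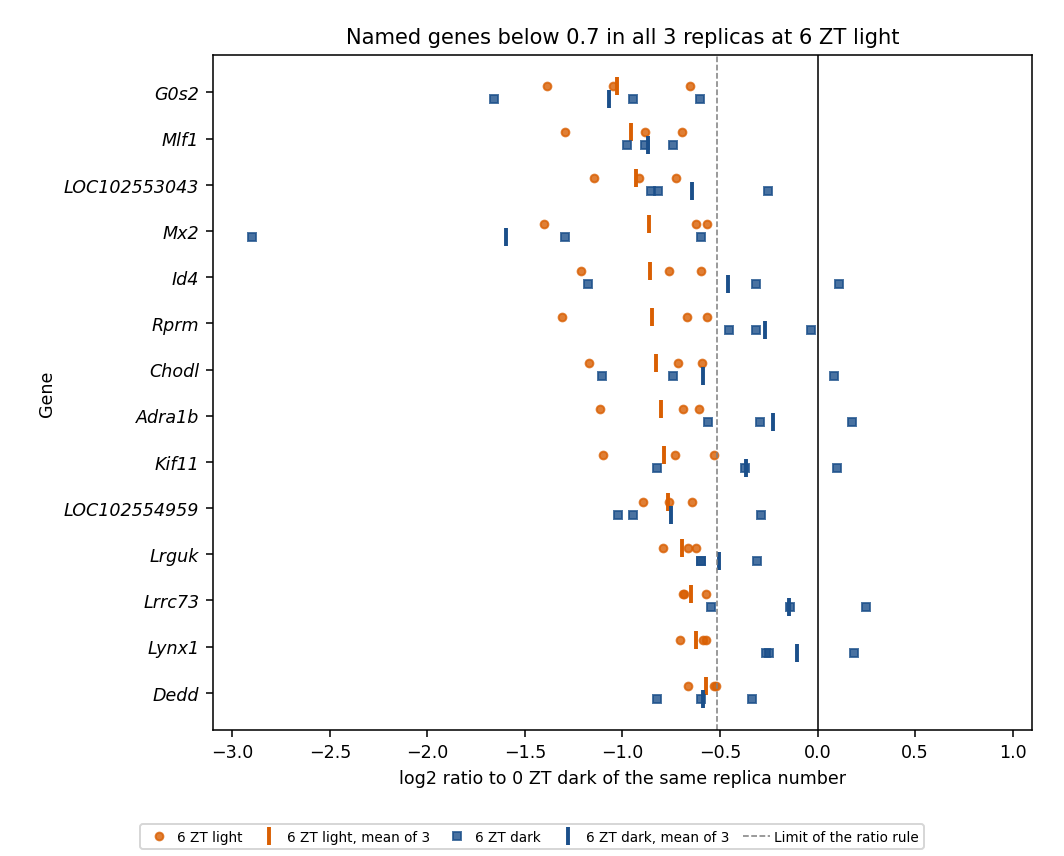
Log2 ratio to 0 ZT dark of the same replica number (horizontal axis) for the 14 named genes (vertical axis) that stood below 0.7 in all 3 replicas of 6 ZT light, shown for 6 ZT light (orange circles) and 6 ZT dark (blue squares), with upright marks for the mean of 3 and a dashed line at the rule's limit. The rule fixes the place of the orange points, and the dark points of Rprm, Adra1b, Kif11, Lrrc73 and Lynx1 have their means nearest to 0.

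The p-values of limma gave a partly different ranking from the ratio rule, since they weigh the spread between samples. *Ccng1*, *Pdzph1*, *Sgip1*, *Mast2*, *Lrguk*, *LOC102553043* and *LOC102554959* were among the 10 lowest p-values of their direction, counted over probe sets with a single symbol and the same sign in all replicas, and passed the ratio rule too. Unnamed probe sets such as 1389754 (adjusted p = 0.102 in limma) lay ahead of several of them. The lowest p of all named genes belonged to *Kdm5c*, an X-linked demethylase of histone H3 lysine 4. It stood at 10.08, 10.03 and 10.48 in 0 ZT dark, 11.12, 10.62 and 11.39 in 6 ZT light and 10.58, 10.56 and 10.98 in 6 ZT dark. Light stood 0.84 above control in limma (standard error 0.101, adjusted p = 0.102), and all light levels lay above those of control. The brightest of its 3 probe sets stood at 11.20, 11.18 and 11.02 against 11.63, 11.60 and 11.82 with no overlap, at 0.55, and the dimmest at 0.53.

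*Cpt1a*, which admits long-chain fatty acids to mitochondria for oxidation and is the rate-limiting step of that process, stood at 11.66, 11.68 and 11.58 in 0 ZT dark, 12.26, 12.50 and 12.47 in 6 ZT light and 11.76, 11.96 and 12.17 in 6 ZT dark. The light samples lay above all 6 dark ones, and each 6 ZT dark sample lay above the 0 ZT dark sample of its number. In limma light stood 0.77 above control (standard error 0.117, adjusted p = 0.156), 0.32 in darkness and 0.45 between light and darkness, and 0.88 without 0 ZT dark replica 1. A dimmer probe set, at 7.89, 8.83 and 9.32 against 9.48, 9.36 and 10.70, had a log2 fold change of 1.17.

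The other higher genes by p-value were *Baiap2l1*, an adaptor of the actin cytoskeleton (0.79, with 0.22 in darkness), *Pacs2*, a sorting protein at the contact of endoplasmic reticulum and mitochondria (0.61 and, on its brighter probe set, 0.37), and *Cdc23*, a subunit of the anaphase-promoting complex (0.52, with 0.08 on its brightest probe set). *Drd4*, the dopamine D4 receptor of photoreceptors, was among the lower ones. Its brightest probe set stood at 14.60, 14.67 and 14.29 in 0 ZT dark, 14.36, 13.83 and 13.59 in 6 ZT light and 14.47, 14.26 and 13.86 in 6 ZT dark. Within each number the order was control, then darkness at 6 ZT, then light, while the groups overlapped. Log2 fold changes of its 3 probe sets were −0.60, −0.83 and −0.72, but in replica 1 the ratios of the dimmer ones were 1.01 and 1.49, and thus not below control.

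*Wdr31*, a WD-repeat protein, stood at 11.70, 11.20 and 11.80 against 10.73, 10.73 and 11.07 with no overlap (−0.72, adjusted p = 0.156). *Pitpnm3*, a phosphatidylinositol transfer protein linked to human cone-rod dystrophy, had −0.48, *Adi1*, an enzyme of methionine salvage, −0.64, and *Kcne4*, a potassium channel subunit, −0.63. *Hsd17b13*, a lipid droplet enzyme, and *Hspb3*, a small heat shock protein, had −0.40 and −0.39. In darkness at 6 ZT the log2 fold changes of these 6 genes ran from −0.53 to −0.24.

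RefSeq promoters, from 250 bases before to 50 after the start of a gene, were matched to 38 of the 41 genes named by ratio or p-value. They were searched on both strands for the cyclic AMP response element (TGACGTCA), its shorter core (TGACG), the E-box (CACGTG), the single-copy site of nuclear receptors such as those of thyroid hormone (AGGTCA) and the core of the heat shock element (GAANNTTC). The full cyclic AMP element holds the shorter core on each strand. Of the 15 higher genes of the ratio rule, 6 held TGACG, against 22.0% of all 27457 promoters, 2 held GAANNTTC (13.3% against 8.34%), 1 held CACGTG (6.67% against 6.65%), and none held AGGTCA (15.7% of all) or TGACGTCA (1.91% of all). Of the 11 lower genes with a promoter, 3 held TGACG (27.3%), 3 AGGTCA (27.3%), 1 GAANNTTC (9.09%) and 1 TGACGTCA (9.09%). A match is a description of the letters and not a site of binding. The paper reports pairs of AGGTCA in promoters of *Atp1b2*, *Ccng1* and *Cpt1a*, without giving the length it scanned. The stretch searched here cannot speak of letters outside it.

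The promoters of 4 genes that passed the ratio rule and were among the lowest p-values are printed with their matches, because both rankings named these genes. They are from the GRCr8 build, 5′ to 3′ on the strand of the gene, and capitals mark the match. *Ccng1* (minus strand) holds GAANNTTC at −215 from the start. *Pdzph1* (minus strand) holds TGACG at 39, *Sgip1* (plus strand) at −58 and *Lrguk* (plus strand) at −4. In *Sgip1* and *Lrguk* the match lies on the strand opposite to the gene, so the capitals print its reverse complement.
Ccng1, chr10:25684827-25685126: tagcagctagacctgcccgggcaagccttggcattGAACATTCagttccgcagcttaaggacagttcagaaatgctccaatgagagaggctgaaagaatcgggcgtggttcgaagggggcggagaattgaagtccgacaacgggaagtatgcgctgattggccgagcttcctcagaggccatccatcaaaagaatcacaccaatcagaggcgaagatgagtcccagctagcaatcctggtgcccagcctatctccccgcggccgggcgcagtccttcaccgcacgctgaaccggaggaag
Pdzph1, chr9:106176662-106176961: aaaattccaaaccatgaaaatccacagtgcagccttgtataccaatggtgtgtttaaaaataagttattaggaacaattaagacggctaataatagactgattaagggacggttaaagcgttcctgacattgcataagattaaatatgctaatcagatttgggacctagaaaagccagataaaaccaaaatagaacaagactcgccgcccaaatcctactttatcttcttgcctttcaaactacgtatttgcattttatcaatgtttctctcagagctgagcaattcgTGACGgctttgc
Sgip1, chr5:122766603-122766902: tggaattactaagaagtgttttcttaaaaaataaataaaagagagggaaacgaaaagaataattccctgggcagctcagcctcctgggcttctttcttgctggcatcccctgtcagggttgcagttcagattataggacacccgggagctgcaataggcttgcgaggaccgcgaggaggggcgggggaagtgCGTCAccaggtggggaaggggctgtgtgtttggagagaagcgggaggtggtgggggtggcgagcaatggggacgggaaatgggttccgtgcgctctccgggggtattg
Lrguk, chr4:63614211-63614510: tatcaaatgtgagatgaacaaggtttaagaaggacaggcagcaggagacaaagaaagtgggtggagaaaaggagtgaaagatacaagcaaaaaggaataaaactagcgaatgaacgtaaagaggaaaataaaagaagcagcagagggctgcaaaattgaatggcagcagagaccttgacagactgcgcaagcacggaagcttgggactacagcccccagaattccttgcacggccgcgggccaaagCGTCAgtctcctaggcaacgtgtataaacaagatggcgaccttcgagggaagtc
*Mast2*, the fifth such gene with a known protein, held none of the letters searched. The 2 uncharacterised genes held GAANNTTC at −185 (*LOC102553043*) and AGGTCA at 17 (*LOC102554959*).

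Gene lists were described by the brightest probe set of each gene, with the counts and median beside those over all probe sets tested, of which 14788 were higher and 16236 lower (median −0.01). Over the 14217 genes, each with its brightest probe set as in the lists, 6205 were higher (43.6%) and 8005 lower (median −0.02). No member of any list passed an adjusted p of 0.05. Of 11 measured genes of the core clock, 8 were higher and 3 lower (median 0.11, and 0.00 in darkness), with 0 at an unadjusted p under 0.05. *Per1*, a repressor of the clock that light induces in the brain's clock, stood at 10.60, 10.65 and 10.76 in 0 ZT dark and 10.61, 10.66 and 11.06 in 6 ZT light. *Cry1*, another repressor, stood at 11.59, 11.69 and 11.59 against 11.66, 11.89 and 11.85, and both genes overlapped between the groups. Among 10 output factors of the clock, *Rorb*, an orphan nuclear receptor needed for rod formation, stood at 12.26, 12.44 and 12.39 in 0 ZT dark, 11.84, 11.82 and 11.46 in 6 ZT light and 12.27, 11.99 and 12.12 in 6 ZT dark. Light was lower than all 6 dark samples, at a difference of −0.66 (standard error 0.184).

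Of 21 immediate early genes, 8 were higher and 13 lower (median −0.02). *Egr1*, a zinc finger factor of active neurons, stood at 12.96, 13.68 and 12.54 in 0 ZT dark, 14.27, 13.86 and 14.38 in 6 ZT light and 13.37, 13.74 and 11.76 in 6 ZT dark. The light samples were the highest of all 9, while the dark ones were widely spread. *Fosb*, a partner of Jun in the AP-1 factor, stood at 6.47, 6.74 and 6.67 against 8.65, 7.26 and 6.94, with replica 1 far above the others. Their log2 fold changes were 1.11 and 0.99, at an unadjusted p of 0.0161 and 0.012. *Fos* had a log2 fold change of 0.03 in light and −1.0 in darkness.

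**Figure D4:**
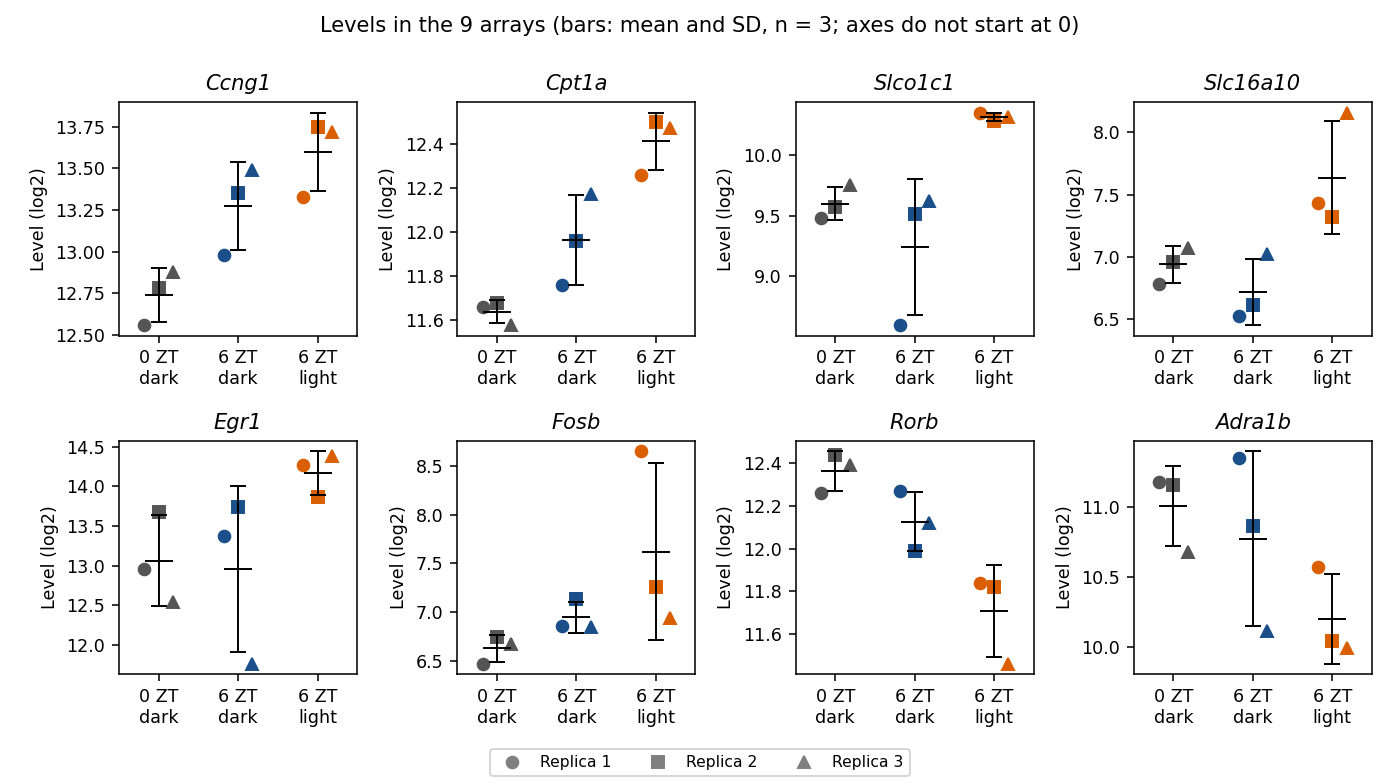
Log2 level (vertical axis, not from 0) of 8 genes in the 3 samples each of 0 ZT dark, 6 ZT dark and 6 ZT light (horizontal axis), with the brightest probe set of each gene. Symbols mark the replica number, and bars show mean and SD (n = 3). Light stands above both dark groups for Ccng1 in each replica number and for Slco1c1, Slc16a10 and Egr1 in every sample, and Rorb in light stands below all dark samples.

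In the thyroid hormone cascade, 12 of 18 genes were higher and 6 lower (median 0.11, 0.00 in darkness), and 5 were higher at an unadjusted p under 0.05, against 3.92% of all probe sets. The study had named this cascade from the same samples, and the list cannot count as separate evidence. Among the 5 were carriers that bring thyroid hormone into cells. *Slc16a10*, a transporter of aromatic amino acids and thyroid hormone, stood at 6.78, 6.96 and 7.07 in 0 ZT dark, 7.43, 7.32 and 8.16 in 6 ZT light and 6.52, 6.61 and 7.02 in 6 ZT dark. *Slco1c1*, which carries thyroxine, stood at 9.48, 9.57 and 9.75, then 10.35, 10.28 and 10.31 in light, then 8.6, 9.51 and 9.62 in 6 ZT dark. For both genes light lay above all 6 dark samples, and darkness at 6 ZT lay below 0 ZT dark in each number.

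The log2 fold changes of these carriers were 0.70 (adjusted p = 0.171) and 0.72. The corepressor *Ncor1* stood at 11.99, 12.22 and 12.13 against 12.26, 12.54 and 12.59, and the coactivator *Crebbp* had 0.22. *Dio2*, the deiodinase that makes active hormone, had 0.88, with an exactly equal value of 5.87 in both groups of replica 1. *Dio3*, which inactivates the hormone, had −0.15, and the receptors *Thra* and *Thrb* had −0.12 and 0.16.

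Of 20 genes of rod phototransduction, 14 were higher and 6 lower (median 0.05), with 4 higher at an unadjusted p under 0.05, against 3.92% of all probe sets. They were the guanylate cyclases *Gucy2d* (0.45) and *Gucy2f* (0.24) and the phosphodiesterase subunits *Pde6a* (0.23) and *Pde6b* (0.18), which make and break down the cyclic GMP of the outer segment. *Pde6a* stood at 12.90, 13.00 and 12.94 in 0 ZT dark, 13.13, 13.17 and 13.23 in 6 ZT light and 13.07, 12.88 and 12.92 in 6 ZT dark, so that light was highest without overlap. Of 9 genes of cone phototransduction, 3 were higher and 6 lower (median −0.09). In the visual cycle, which regenerates the chromophore of opsins, 14 of 15 genes were higher (median 0.22, and −0.02 in darkness). Of these, 8 were higher in all 3 replicas, against 12.3% of all probe sets. *Rbp4*, a carrier of retinol, stood at 9.21, 8.86 and 9.18 against 9.48, 9.35 and 9.42 without overlap, and was the only member at an unadjusted p under 0.05 (0.33). Several genes of this list are also markers of the pigment epithelium. The 14 measured markers of that layer had a median of 0.16 in light and −0.40 in darkness, with a summed level of 15.45 to 15.84 in 0 ZT dark, 15.48 to 16.16 in 6 ZT light and 14.92 to 15.58 in 6 ZT dark. Without 6 ZT light replica 1 their median was −0.05 and that of the visual cycle 0.10. The part of this tissue in the visual cycle values was not tested.

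Of 32 genes of vesicle release, 18 were higher and 14 lower (median 0.02). *Rims2*, a scaffold of the active zone, stood at 10.25, 10.11 and 10.09 in 0 ZT dark and 10.56, 10.77 and 10.87 in 6 ZT light (0.58) without overlap, with 10.43, 10.45 and 10.52 in 6 ZT dark. *Syt1*, the calcium sensor of release, had 1.09 in light and 0.96 in darkness. Of 30 ion channels and transmitter receptors, 14 were higher and 16 lower, and *Cacna1d*, a calcium channel subunit, had 0.46 in light and 0.08 in darkness. Of 6 sodium pump subunits, 2 were higher and 4 lower (median −0.22). *Fxyd7*, a regulator of the pump, stood at 10.44, 10.17 and 11.05 against 10.02, 9.89 and 10.18.

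Of 41 chromatin, splicing and RNA factors, 38 were higher in 6 ZT light and 3 lower (median 0.12), 15 of them higher in all 3 replicas, against 12.3% of all probe sets. In 6 ZT dark the median was −0.07, and between light and darkness 0.20. The list median was 0.02, 0.14 and 0.21 in replicas 1 to 3, and from 0.11 to 0.17 with 1 of the 6 samples left out. *Chd1*, a remodeller of active chromatin, had a log2 fold change of 0.27. *Ddx3x*, an RNA helicase, had 0.16. At an unadjusted p under 0.05, 3 of the 41 were higher and 0 lower, against 3.92% and 2.26% of all probe sets.

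Heat shock proteins and chaperones were higher in 20 of 27 cases (median 0.07). In all 3 replicas 11 were higher and 2 lower, against 12.3% and 9.38% of all probe sets. *Calr*, a chaperone of the endoplasmic reticulum, stood at 11.83, 12.12 and 12.39 against 12.62, 12.43 and 12.52 without overlap (0.41), and *Hspa5*, its neighbour in that compartment, at 13.03, 13.17 and 13.25 against 13.44, 13.33 and 13.46 (0.26). In fatty acid oxidation, 14 of 21 genes were higher and 7 lower (median 0.06). Besides *Cpt1a*, the regulators *Ppargc1a* (0.41) and *Ppara* (0.26) were higher at an unadjusted p under 0.05, and 1 member was lower. *Sgk1*, a kinase induced by glucocorticoids, stood at 13.37, 13.55 and 13.61 in 0 ZT dark, 13.65, 13.69 and 13.84 in 6 ZT light and 13.43, 13.51 and 13.64 in 6 ZT dark, so that light was highest.

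Of 14 targets of p53, 6 were higher and 8 lower (median −0.01), with *Ccng1* and *Rprm* at either end. Glycolysis and lactate handling gave 11 higher and 12 lower of 23, and cholesterol synthesis and uptake 7 and 13 of 20, where *Abca1*, an exporter of cholesterol, had 0.40. For Müller glia and retinal stress the counts were 15 and 11 of 26 (median 0.04), with 6 higher and 2 lower in all 3 replicas. There *Kcnj10*, the potassium channel of these glia, had 0.25, and *Aqp4*, their water channel, had 0.26. Both were picked for a low p and do not stand for the list. Glucocorticoid-responsive genes gave 10 and 5 of 15, and motors of microtubules and vesicles 15 and 13 of 28, where *Kif2a* had 0.29. At an unadjusted p under 0.05 in limma, the cholesterol list had 1 member higher and 1 lower. The motors had 2 higher and 2 lower, against 3.92% and 2.26% of all probe sets.

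Ribosomal, respiratory and interferon-induced genes stood mostly on the lower side. Of 41 cytosolic ribosomal proteins, 39 were lower and 2 higher (median −0.10, and −0.17 in darkness), 20 of them in all 3 replicas, against 9.38% of all probe sets. The respiratory chain had 46 members lower and 10 higher of 56 (median −0.10, and −0.14 in darkness), 14 of them in all 3. These genes were not lower in replica 1, where the medians were 0.00 and 0.03, and without 0 ZT dark replica 2 the medians were −0.03 and −0.02. Of 25 interferon-induced genes, 23 were lower and 2 higher (median −0.16, and −0.22 in darkness), with 5 lower in all 3 replicas and a median of 0.06 in replica 1. *Ndufb5*, a subunit of complex I, stood at 13.79, 13.72 and 13.80 against 13.63, 13.54 and 13.50 without overlap, and *Rpl22*, of the large ribosomal subunit, at 13.69, 13.62 and 13.93 against 13.66, 13.23 and 13.35.

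**Figure D5:**
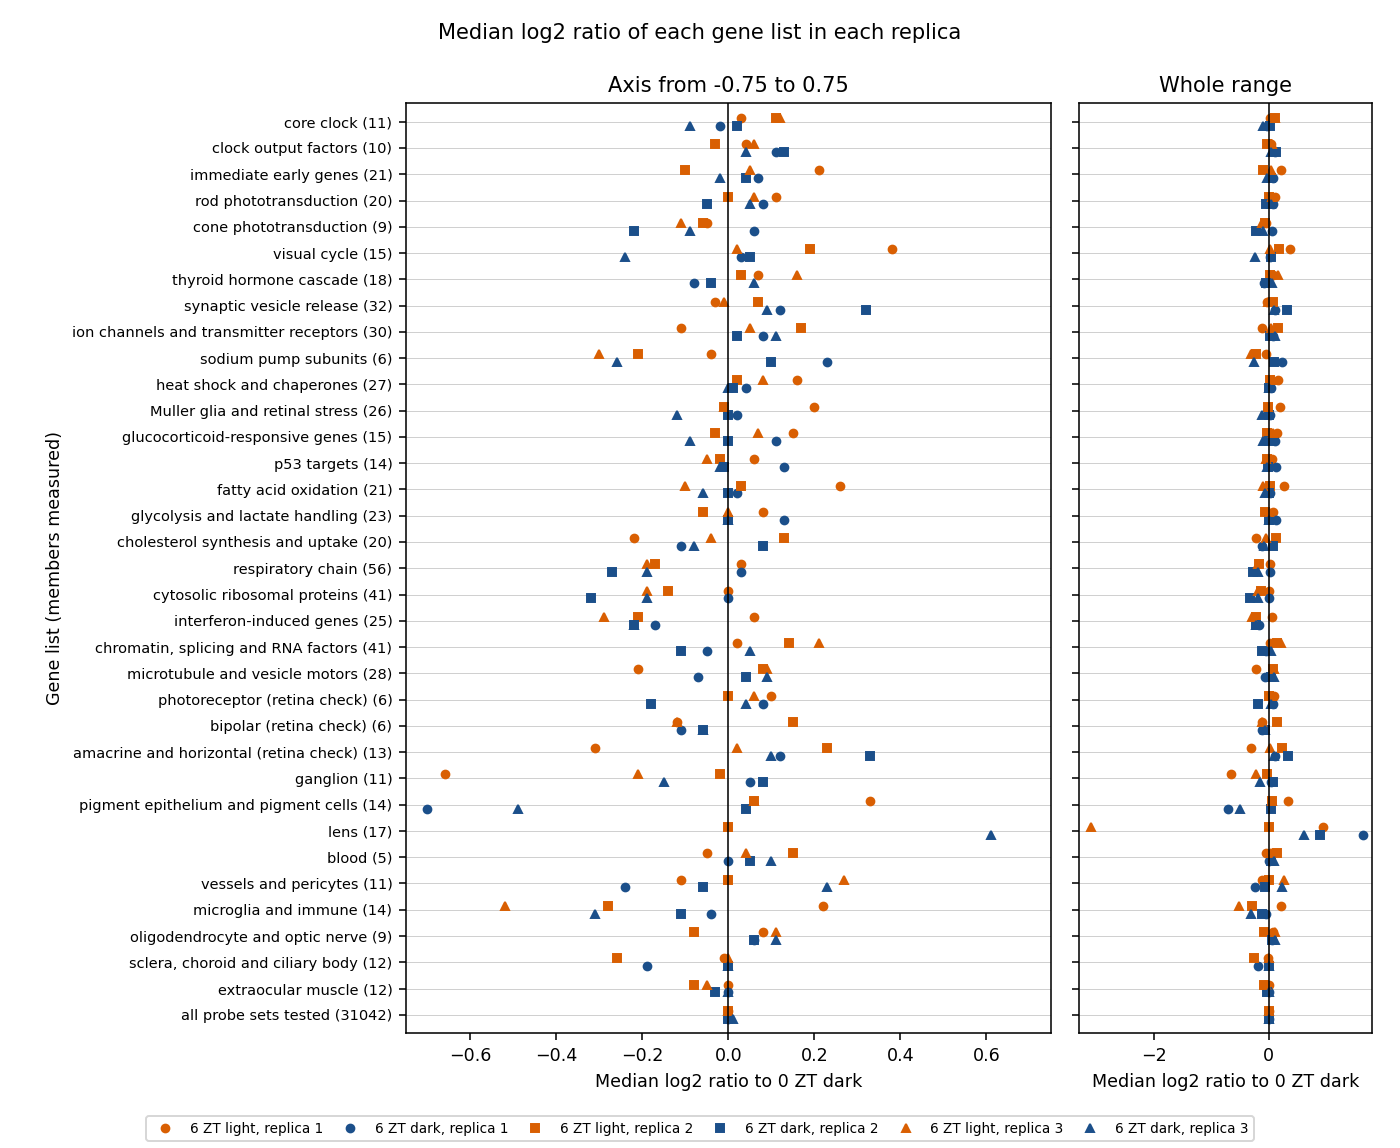
Median log2 ratio to 0 ZT dark (horizontal axis) of each gene list (vertical axis, with the number of members measured) in each replica of 6 ZT light (orange) and 6 ZT dark (blue), with symbols for the replica number. The left panel spans −0.75 to 0.75 and leaves out points beyond it, and the right panel holds the whole range, where lens genes in replica 3 of 6 ZT light lie at −3.09.

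Markers of other cell types were set beside these values. All 17 measured lens genes were lower in 6 ZT light (median −0.61), but the medians in replicas 1 to 3 were 0.94, 0.00 and −3.09. Their summed level was 17.15 and 17.31 in replicas 2 and 3 of 0 ZT dark and lower in replica 1, 16.52, 17.26 and 14.26 in 6 ZT light and 17.12, 17.82 and 17.82 in 6 ZT dark. Replica 3 of 6 ZT light thus held the least lens RNA of the 9 samples, and without it the list median was 0.36, with the opposite sign. *Cryba1*, a β-crystallin, stood at 13.26, 14.34 and 14.67 against 13.86, 14.66 and 11.58. The part of the lens in other values was not tested.

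Of 11 ganglion cell markers, 10 were lower and 1 higher (median −0.31, and 0.07 in darkness), with −0.66, −0.02 and −0.21 in the replicas. Their summed level was 16.32 to 16.52 in 0 ZT dark and 15.75 to 16.31 in 6 ZT light, and without 6 ZT light replica 1 the median was −0.16. *Rbpms*, which marks ganglion cells, stood at 11.58, 11.27 and 11.75 against 9.97, 11.14 and 11.27, and *Opn4*, melanopsin, at 11.84, 11.64 and 11.49 against 12.11, 11.72 and 11.61. Of 14 markers of microglia, 13 were lower and 1 higher (median −0.20), with 0.22, −0.28 and −0.52 in the replicas and a summed level of 12.54 to 13.22 against 12.42 to 12.76. Bipolar markers gave 2 higher and 4 lower, and amacrine and horizontal markers 7 and 6. The 5 blood markers had a summed level of 11.39, 14.47 and 12.62 in 6 ZT light and 12.21 to 12.71 in 0 ZT dark, so that 6 ZT light replica 2 stood apart, and the part of blood in other values was not tested. Medians for blood, vessels, optic nerve, the outer coats of the eye and eye muscle lay between −0.08 and 0.03.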

How the data were processed

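Total RNA of whole retinas was hybridised to rat expression arrays, 15 in all, with 3 replicas of 5 conditions. The deposited values are log2 levels per probe set, which the authors made with RMA (background correction, quantile normalization and summary over probes), and the software is not given in the sources used here. RMA pulls arrays that are processed together towards 1 distribution and compresses differences of dim probe sets. The median levels here still followed the replica number, with 8.32, 8.31 and 8.29 in replica 1 of 0 ZT dark, 6 ZT light and 6 ZT dark. In replica 3 they were 8.79, 8.8 and 8.78. These arrays thus do not share 1 distribution, and whether each replica number was processed apart is not stated. The amounts and reagents for RNA extraction differ between the labels and the methods.

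Groups were taken from the sample titles. limma 3.58.1 in R 4.3.3 was fitted to all 15 arrays with the replica number as a block (lmFit, eBayes), with Benjamini-Hochberg adjustment over 31042 probe sets and a threshold of 0.05. No filter on dim probe sets was used. The ratio rule of the methods, above 1.6 or below 0.7 in all 3 replicas, was read as a linear ratio to the control of the same number. Samples with the same number deviated together from their group means (r = 0.389, 0.459 and 0.616 for 6 ZT light with 0 ZT dark), while other numbers gave −0.098 to −0.386, and this pairing comes from the data and the methods, not from a stated shared animal or day.

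A single gene symbol was given to 20826 probe sets, several to 436 and none to 9780, from the platform annotation, and no gene was named from a probe set with several. Named were the genes of the ratio rule, the 10 lowest p-values per direction among probe sets with a single symbol and the same sign in all replicas, up to 3 members per list, genes the study names for 6 hours of light, and unnamed probe sets with the largest ratios. The members and the 34 lists were chosen with earlier results of these data known. The fit was tested on simulated data. Alternatives were other normalizations, array weights, a filter that left out the dimmest 40 percent, no block, a fit of only the compared conditions, other ratio limits and leaving out each array. Tables were handled with pandas 2.3.3, and plots drawn with matplotlib 3.10.9.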

Additional observations from a re-analysis of the deposited data

Results flagged for a closer look

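Of 138 probe sets named by ratio, p-value or list, 4 had all 3 ratios to 0 ZT dark above 1 in 6 ZT light and below 1 in 6 ZT dark, and both sets of ratios share the control samples. Over all 31042 probe sets tested 178 had this pattern (0.573%), and 76 the opposite one (0.245%). The 138 were named for their ratios or p-values in light against control, so part of the pattern is built in. Their share therefore cannot be weighed against that of all probe sets. *Slc16a10* stood 0.92 higher in light than in darkness at 6 ZT on the log2 scale (adjusted p = 0.118 in limma), and *Slco1c1* 1.07 higher (adjusted p = 0.44). *Lrat*, which esterifies retinol and is also a marker of the pigment epithelium, stood 1.43 higher (adjusted p = 0.44), with 10.82, 9.37 and 9.45 in 0 ZT dark, 11.13, 10.12 and 9.63 in 6 ZT light and 9.01, 9.36 and 8.21 in 6 ZT dark. *Prkca*, a kinase that marks rod bipolar cells, stood 0.27 higher (adjusted p = 0.562). None of the 4 differences passed an adjusted p of 0.05.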

How the results depend on the processing

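With array quality weights, limma passed 511 probe sets as higher and 165 as lower for 6 ZT light against 0 ZT dark, 2311 between light and darkness at 6 ZT and 3 between 6 ZT dark and 0 ZT dark, against 0 in each with equal weights and all arrays. These weights ran from 0.4636 for 0 ZT dark replica 1 to 7.447 for 6 ZT light replica 3 among the 6 arrays of 6 ZT light and 0 ZT dark. With each array left out in turn the counts ran from 0 to 36 for higher, 0 to 2 for lower, 0 to 3 between light and darkness and 0 to 1 between the dark groups. The highest of these came without 3 ZT light replica 2 for all but light against darkness (without 6 ZT light replica 1). Leaving out both arrays with a large *Actb* difference, chosen after seeing the data, gave 2 higher and 1 lower. Without the replicate block limma passed 0 in each comparison, and the ratio rule against the mean of the controls passed 19 higher, 10 of them shared with the paired rule, and 26 lower, 8 of them shared. Ratios above 2 passed 4 and log2 ratios above 0.6 passed 40, ratios below 0.5 passed 0 and log2 ratios below −0.7 passed 2, and lower gene symbols counted once were 14. Leaving out a replica, the rule passed 49 to 97 higher and 62 to 168 lower. The probe sets named by ratio or p-value, with the unnamed ones, kept their direction in all settings (0 reversed over 47 results). They were selected for the same direction in all replicas, so this count could hardly differ and says little about robustness. Genes named only as list members were not run singly. List medians moved in 18 settings and stayed within their spread in 356. The cause of these changes was not tested, and the small number of arrays limits every count.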
